A study of Mus musculus with 9 samples.

Results

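The 36 genes described here encode enzymes of cholesterol and fatty acid synthesis together with the proteins that sense sterols and switch these enzymes on, and most are known targets of the sterol regulatory element-binding proteins (SREBPs). They were chosen by gene symbol, with earlier results of these data known, and all 36 were found among the 56748 gene rows of the count table. RNA sequencing was performed on MLO-Y4, an osteocyte-like cell line established from mouse long bone and immortalised with a viral T antigen. The cells shared medium, through a transwell insert, with primary articular chondrocytes taken from the femoral condyles and tibial plateau of C57BL/6J mice 5 to 6 days old. In the control group (3 libraries) the chondrocytes were not stimulated. In the 24 h and 48 h groups (3 libraries each) the chondrocytes had received 10 ng/ml interleukin-1β (IL-1β) for 6 h before the co-culture, which then lasted 24 h or 48 h. All 3 groups carry the chondrocyte insert, and the labels name no agent added to the osteocyte-like cells themselves. How long the control co-culture lasted is not given in the labels, so stimulation and culture time cannot be told apart in a comparison with control. For the 3 samples at 48 h the cell line field reads MLO-Y5, MLO-Y6 and MLO-Y7, while the protocols name MLO-Y4 for every sample.

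Cholesterol is built from acetyl-CoA through the mevalonate pathway, which leads to farnesyl diphosphate and squalene, and then through a series of oxidations, demethylations and reductions of the sterol ring. When membrane sterol falls, SCAP escorts the SREBPs from the endoplasmic reticulum to the Golgi, where they are cut into active transcription factors, whereas INSIG proteins hold the complex back when sterols are plentiful. SREBP-2 mainly drives genes of sterol synthesis and SREBP-1 mainly those of fatty acid synthesis and desaturation, with overlap between them. In bone, the mevalonate pathway is best known as the target of nitrogen-containing bisphosphonates, which inhibit farnesyl diphosphate synthase.

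Library totals ranged from 12250628 to 18515456 counts and were highest at 48 h, from 16458398 counts upwards. Shares of the counts were taken over library totals corrected for composition by edgeR. On this scale the 36 genes together took 0.578% to 0.615% in control and 0.594% to 0.609% at 24 h. At 48 h they took 0.725% to 0.752%. All 36 passed the filter on low counts, and 34 had more than 100 counts in every library. The libraries are of bulk RNA, so fewer cells of a type and less RNA per cell cannot be told apart. Of 10 osteocyte markers, Gja1, Pdpn, Fbln7, Phex and Irx5 were measured, whereas Mepe, Fgf23 and Dkk1 were at 0 in every library and the late markers Dmp1 and Sost had at most 6 counts and 1 count per library. CPM, here and below, are counts scaled to library totals corrected for composition by edgeR, and the log2 changes carry the same correction. The summed osteocyte list lay between 1726 and 1873 CPM in control and between 1958 and 1984 CPM at 24 h. At 48 h this sum lay between 2774 and 2805 CPM. Most of the osteocyte sum was Gja1. Of 14 chondrocyte markers, Acan, Col9a1, Col9a2, Matn1 and Cnmd were at 0 in every library and Col2a1 had at most 7 counts, while the sum, most of it Prg4, was 1684 to 1717 CPM in control, 1566 to 1650.4 CPM at 24 h and 2129 to 2218 CPM at 48 h. Of the 6 chondrocyte markers tested at 48 h, Prg4, Sox9 and Comp were higher (log2 changes of 0.38, 0.14 and 1.45) and Matn3 was lower (-1.25). Comp was near the floor, with 3 to 7 counts per library in control and 12 to 21 at 48 h. Adipocytes are a cell type with strong lipid synthesis. Of 10 adipocyte markers, Lep, Cidec and Cfd were at 0 and Adipoq and Plin1 at 1 count or less in every library, while Fabp4 had 6 to 13 counts in control, 8 to 17 at 24 h and 131 to 159 at 48 h. Of the 4 adipocyte markers tested at 48 h, Fabp4 and Lipe were higher (log2 changes of 3.79 and 0.30), whereas Pparg, the master regulator of fat cell formation, was lower (-1.14, adjusted p = 0.000179), from 5.72 to 6.32 CPM in control to 2.24 to 3.43 CPM. The summed adipocyte list was 24.2 to 25.9 CPM in control, 21.4 to 23.9 CPM at 24 h and 33.9 to 34.8 CPM at 48 h. Of 10 macrophage markers, 5 were at 0 in every library and the sum stayed between 4.54 and 8.18 CPM. The part of these shifts in the results that follow was not tested.

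RefSeq promoter windows were available for 29 of the 36 genes, as the 250 bases before the annotated start (mouse build GRCm38.p6). A match to the sterol regulatory element TCACNCCAC, searched on both strands, was found in 1 of the 29, Hmgcs1, against 1.22% of all 27025 genes with a window. A CCAAT box (CCAAT, either strand), the site of NF-Y, a factor known to work beside SREBPs, was found in 23 of the 29 (79.3%), against 37.5% of all genes with a window and 40.9% of those that were tested here. GGGCGG, the GC box bound by SP1, was found in 23 of the 29 (79.3%), against 35.4% of all genes and 64.3% of tested genes. The E-box CACGTG, which reads the same on both strands, was found in 6 of the 29 (20.7%), against 6.86% and 9.93%. These are counts of letters in a window and not sites shown to be bound. The windows of 4 genes follow, 5′ to 3′ on the gene's strand, with the sterol element and the CCAAT boxes in capitals (ATTGG where the box is on the other strand). Hmgcs1 (chr13:119690101-119690350, plus strand) is shown because it alone holds the sterol element, Tm7sf2 (chr19:6067851-6068100, minus strand) and Elovl5 (chr9:77917115-77917364, plus strand) because they had the largest changes, and Mvk (chr5:114444019-114444268, plus strand) because it holds 5 CCAAT boxes and passed no test against control.
Hmgcs1: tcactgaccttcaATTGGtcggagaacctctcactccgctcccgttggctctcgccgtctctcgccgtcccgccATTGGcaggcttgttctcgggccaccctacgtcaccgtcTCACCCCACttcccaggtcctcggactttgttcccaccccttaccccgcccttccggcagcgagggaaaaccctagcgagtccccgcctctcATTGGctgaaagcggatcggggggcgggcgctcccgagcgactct
Tm7sf2: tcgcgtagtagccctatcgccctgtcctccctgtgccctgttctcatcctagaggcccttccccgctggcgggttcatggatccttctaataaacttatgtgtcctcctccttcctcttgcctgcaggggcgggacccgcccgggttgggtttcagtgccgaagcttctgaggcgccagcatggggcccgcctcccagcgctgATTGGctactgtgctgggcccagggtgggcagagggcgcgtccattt
Elovl5: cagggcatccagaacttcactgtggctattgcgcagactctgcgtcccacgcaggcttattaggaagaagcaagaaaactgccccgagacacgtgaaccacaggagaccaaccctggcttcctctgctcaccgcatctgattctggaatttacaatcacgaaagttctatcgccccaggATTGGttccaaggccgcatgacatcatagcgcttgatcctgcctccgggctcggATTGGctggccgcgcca
Mvk: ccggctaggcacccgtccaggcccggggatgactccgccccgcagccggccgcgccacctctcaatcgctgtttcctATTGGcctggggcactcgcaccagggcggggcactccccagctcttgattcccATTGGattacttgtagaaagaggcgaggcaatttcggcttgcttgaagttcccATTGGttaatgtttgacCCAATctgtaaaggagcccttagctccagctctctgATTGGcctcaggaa
A CCAAT box was in the window of 15 of the 16 matched genes that were higher at 48 h than in control and of 8 of the other 13. The 7 genes without a window (Fads1, Fdft1, Fdps, Scd1, Scd2, Sqle and Stard4) were all higher at 48 h. The missing windows therefore fall only among the higher genes, and a link between the box and the rise was not tested.

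After 48 h of co-culture with stimulated chondrocytes, most genes of sterol and fatty acid synthesis were higher than in control. With edgeR's quasi-likelihood test at an adjusted p under 0.05 (Benjamini-Hochberg over the 13812 genes tested), 23 of the 36 were higher, 1 (Scap) was lower and 12 passed in neither direction. In this comparison 46.4% of all genes tested were called, 22% higher and 24.4% lower. The log2 change (log2 of the fold change against control) was above 0 for 33 of the 36, with a median of 0.30, whereas the median of all genes tested was -0.0022. The changes were modest in size. The 23 genes that rose did so by 1.10-fold to 2.56-fold, and 5 of the 36 exceeded 1.5-fold. In all 23 the 48 h libraries lay above every control library; libraries of 24 members were entirely higher and of 2 entirely lower, against 25.7% and 27.4% of all genes (53.1% in either direction). The plot of the genes in each library shows these positions. Within the control group the libraries of a gene were close, with a coefficient of variation of 1.47% to 11.3% and a median of 5.24%.

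**Figure D1:**
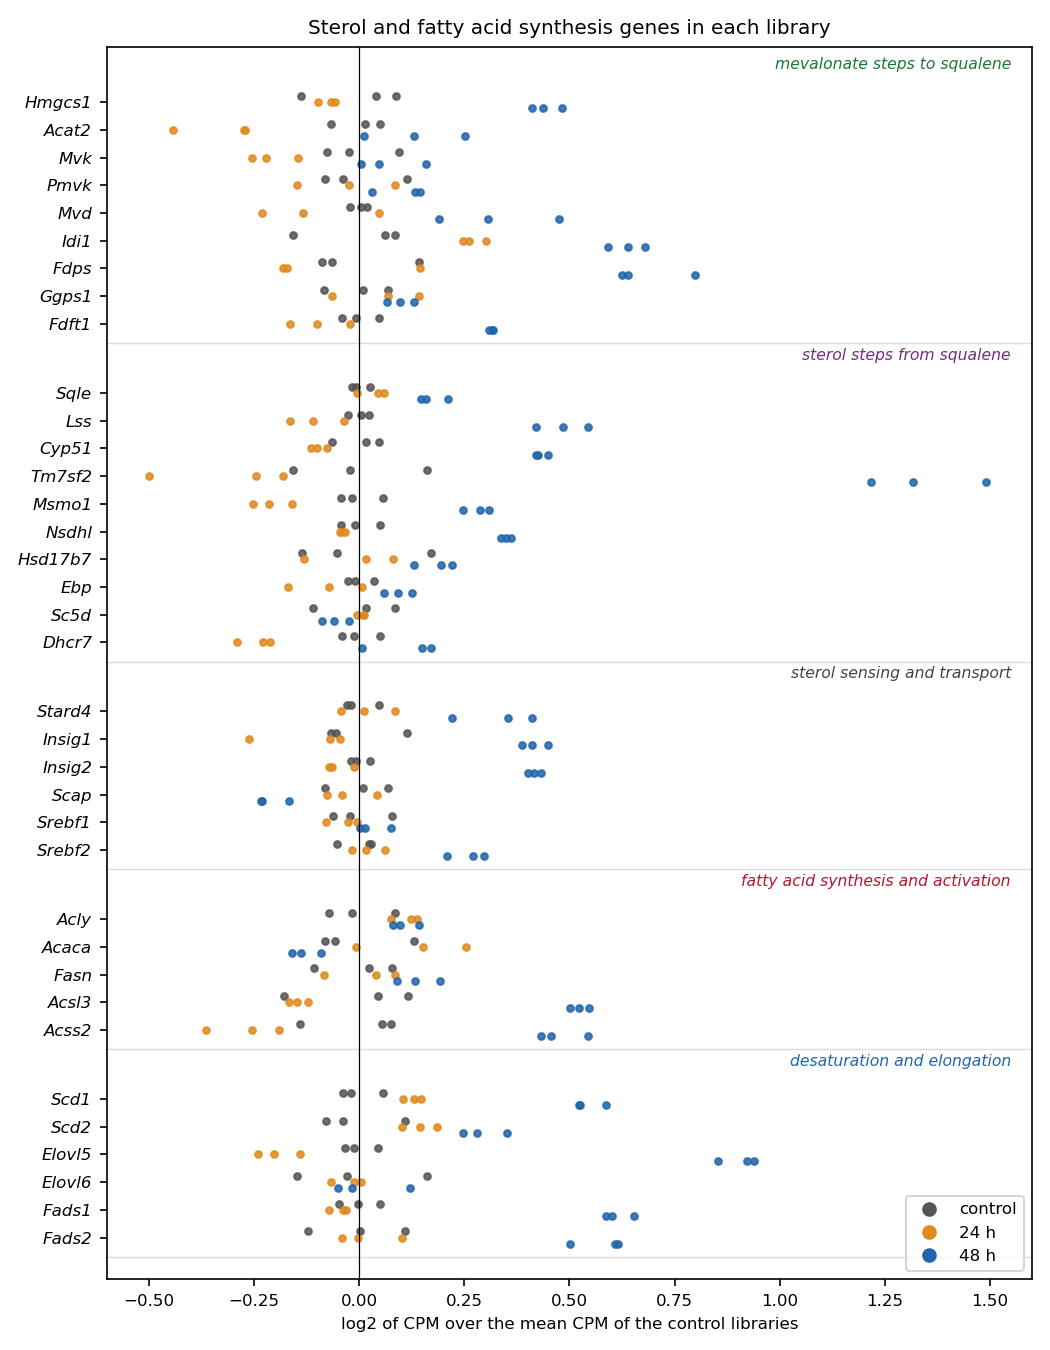
Each row is 1 gene and each point 1 library, as log2 of its CPM over the mean CPM of the 3 control libraries, coloured by group and arranged by role. The 48 h points lie to the right of all control points for 24 genes, farthest for Tm7sf2 and Elovl5, while the 24 h points lie close to control and often to the left of it.

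The mevalonate steps showed 5 of 9 genes higher at 48 h and none lower, with a median log2 change of 0.31. Fdps (chr3:89000895-89009266, minus strand, GRCm39) encodes farnesyl diphosphate synthase, the enzyme inhibited by nitrogen-containing bisphosphonates. It was measured at 6.65, 7.69 and 6.55 CPM in the control libraries, 6.14, 6.18 and 7.69 CPM at 24 h and 12.1, 10.8 and 10.7 CPM at 48 h. The 48 h libraries were the highest 3, and the control and 24 h libraries overlapped. The log2 change at 48 h was 0.69 ± 0.13 (SE; adjusted p = 0.000231). Its counts, 87 to 212 per library, are uncertain, because the annotated gene Gm43738 covers 7512 bases of Fdps on the same strand and had 0 counts, and how reads in shared exons were assigned is not given in the sources used here. In all, 19 of the 36 genes overlap another annotated gene.

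Idi1 (chr13:8935537-8942487, plus strand), which encodes the isomerase that makes dimethylallyl diphosphate, was the only member higher at both times. It was at 79.8, 68.6 and 81.1 CPM in the control libraries, 91.7, 94.3 and 90.7 CPM at 24 h and 115, 123 and 119 CPM at 48 h. The 3 groups did not overlap. The log2 change was 0.27 ± 0.063 at 24 h (adjusted p = 0.0141, and 0.0547 without 24 h replicate 2) and 0.64 ± 0.062 at 48 h (adjusted p = 1.46e-07), a further log2 step of 0.37 from 24 h to 48 h (adjusted p = 6.99e-05). The genome also holds 5 annotated Idi1 pseudogenes, of which Idi1-ps1 had a mean of 14.8 counts and the others 0.222 or fewer, so reads shared with these copies could not be separated.

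Hmgcs1 (chr13:120151915-120169796, plus strand) encodes HMG-CoA synthase, an early enzyme of the pathway, and its window above holds the sterol element. Hmgcs1 stood at 137, 117 and 132 CPM in the control libraries, 120.1, 123 and 123 CPM at 24 h and 171, 179 and 174 CPM at 48 h. The control and 24 h libraries overlapped, while those at 48 h were the highest 3, a log2 change of 0.44 ± 0.058 against control (adjusted p = 5.1e-06). Mvd (chr8:123160340-123170161, minus strand) encodes mevalonate diphosphate decarboxylase. Its levels were 40.7, 41.1 and 40.0 CPM in the control libraries, 34.6, 37.0 and 41.9 CPM at 24 h and 56.4, 46.3 and 50.2 CPM at 48 h, with the 48 h libraries above all others and a log2 change of 0.33 ± 0.080 (adjusted p = 0.00246). Fdft1, the squalene synthase that commits farnesyl diphosphate to sterols, rose by a log2 change of 0.31 ± 0.054 at 48 h (adjusted p = 0.000108); it overlaps Ctsb, which had a mean of 27613 counts, by 774 bases on the opposite strand.

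The other 4 mevalonate genes did not pass at 48 h. Acat2, the thiolase of the first step, differed from control by a log2 change of 0.14 ± 0.068 at 48 h (adjusted p = 0.11) after it had fallen by 0.33 at 24 h (adjusted p = 0.00619, and 0.0627 without 24 h replicate 3). The values at 48 h were 0.074 ± 0.068 for mevalonate kinase (Mvk), 0.11 ± 0.081 for phosphomevalonate kinase (Pmvk) and 0.10 ± 0.071 for Ggps1, which makes geranylgeranyl diphosphate for protein prenylation rather than for sterols.

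Among the enzymes from squalene to cholesterol, 6 of 10 were higher at 48 h and none lower, with a median log2 change of 0.23. The largest change of all 36 genes was in Tm7sf2 (chr19:6112851-6118403, minus strand), an endoplasmic reticulum sterol reductase that acts on the product of CYP51. Tm7sf2 was measured at 6.03, 7.52 and 6.62 CPM in the control libraries, 5.67, 4.75 and 5.93 CPM at 24 h and 16.7, 15.6 and 18.9 CPM at 48 h, from 73 to 354 counts. Every 48 h library was above every control library, and the 24 h libraries lay below all 3 controls. The log2 change was 1.35 ± 0.13 at 48 h (adjusted p = 6.87e-08), or 2.56-fold, and -0.30 ± 0.15 at 24 h, which did not pass (adjusted p = 0.287). Tm7sf2 shares 532 bases on the same strand with Vps51, which had a mean of 460.2 counts, so its counts are uncertain to that extent.

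Lss (chr10:76367422-76392972, plus strand) encodes lanosterol synthase, which closes the sterol rings. It had 91.4, 93.4 and 94.7 CPM in the control libraries, 90.8, 83.2 and 86.3 CPM at 24 h and 130.3, 125 and 136 CPM at 48 h, and the log2 change was 0.48 ± 0.055 at 48 h (adjusted p = 9.25e-07). Cyp51 (chr5:4131145-4154746, minus strand), the lanosterol demethylase, had 165, 153 and 162 CPM in the control libraries, 148, 152 and 149.6 CPM at 24 h and 219, 214 and 215 CPM at 48 h, and a log2 change of 0.43 ± 0.048 at 48 h (adjusted p = 7.83e-07). In both genes the 24 h libraries were all below control, with log2 changes of -0.10 and -0.10, but neither passed (adjusted p = 0.354 and 0.301). Nsdhl (chrX:71962163-72002120, plus strand), a dehydrogenase of the demethylation complex, was measured at 38.0, 39.7 and 37.2 CPM in the control libraries, 37.2, 37.1 and 37.4 CPM at 24 h and 48.8, 49.1 and 48.4 CPM at 48 h, with a log2 change of 0.35 ± 0.060 at 48 h (adjusted p = 0.000109) and overlap between control and 24 h.

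Msmo1, the methylsterol oxidase of the same complex, first fell and then rose, with log2 changes of -0.21 ± 0.054 at 24 h (adjusted p = 0.0272, lost without 24 h replicate 1, 24 h replicate 3 or control replicate 2, with adjusted p from 0.0725 to 0.146) and 0.28 ± 0.053 at 48 h (adjusted p = 0.000261). Its 24 h call was also lost with no filter (adjusted p = 0.0542) and with only the groups compared (0.0787). Squalene epoxidase (Sqle), which makes the first oxygenation on the way to sterols, rose by only 0.17 at 48 h (SE 0.044; adjusted p = 0.0037). The last enzymes of the route did not pass at 48 h. The log2 changes were 0.18 ± 0.075 for Hsd17b7 (adjusted p = 0.0537), 0.094 ± 0.062 for the sterol isomerase Ebp, -0.060 ± 0.069 for the desaturase Sc5d and 0.11 ± 0.065 for Dhcr7, which makes cholesterol from its immediate precursor. Dhcr7 was lower at 24 h, with a log2 change of -0.24 ± 0.068 (adjusted p = 0.0378), a call that was lost without any 1 of the 24 h libraries, without 48 h replicate 1 or 2 and without control replicate 1 or 3 (adjusted p from 0.0511 to 0.136). With all libraries kept, this call was also lost with DESeq2 (adjusted p = 0.0593), with no filter (0.0703) and with only the groups compared (0.0658).

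Of the 6 genes of sterol sensing and transport, 4 were higher and 1 was lower at 48 h, and none passed at 24 h. Srebf2, which encodes SREBP-2, had 338, 356 and 357 CPM in the control libraries, 355, 347 and 366 CPM at 24 h and 423, 405 and 431 CPM at 48 h. Its 48 h libraries were the highest 3, with a log2 change of 0.26 ± 0.045 (adjusted p = 0.000121). Srebf1, which encodes SREBP-1, had 168, 180.5 and 164 CPM in the control libraries, 162, 170.3 and 168 CPM at 24 h and 180.2, 173 and 171 CPM at 48 h. All 3 groups lay close together, with log2 changes of -0.036 ± 0.052 at 24 h and 0.032 ± 0.052 at 48 h, and neither passed. The cut, active forms of the SREBPs were not measured.

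The INSIG genes moved opposite to Scap at 48 h. Insig1, itself a well-known SREBP target, was measured at 57.8, 51.0 and 51.4 CPM in the control libraries, 50.9, 44.5 and 51.7 CPM at 24 h and 71.0, 72.9 and 69.9 CPM at 48 h, with a log2 change of 0.41 ± 0.068 at 48 h (adjusted p = 7.34e-05). Insig2 had 154, 149 and 150.2 CPM in the control libraries, 144, 149.6 and 144 CPM at 24 h and 199.5, 204 and 201 CPM at 48 h, with a log2 change of 0.42 ± 0.047 (adjusted p = 8.94e-07). In both, every 48 h library exceeded every other library. Scap, the escort of the SREBPs, had 98.5, 103 and 92.6 CPM in the control libraries, 92.9, 95.2 and 101 CPM at 24 h and 87.3, 83.4 and 83.5 CPM at 48 h. The 48 h libraries were the lowest 3, and Scap fell by 13.5% against control, a log2 change of -0.21 ± 0.057 (adjusted p = 0.00586). Stard4, a carrier of cholesterol between membranes, had 68.8, 69.3 and 72.5 CPM in the control libraries, 68.2, 74.5 and 70.8 CPM at 24 h and 81.8, 89.8 and 93.3 CPM at 48 h, and rose by a log2 change of 0.33 ± 0.061 at 48 h (adjusted p = 0.000225).

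The route from citrate and acetate to fatty acids was divided. Of its 5 genes, 3 were higher at 48 h and none lower, and the median log2 change was 0.14, the smallest of the 5 classes. The larger changes were those of Acsl3 and Acss2. Acsl3 (chr1:78635542-78685460, plus strand), a long-chain acyl-CoA synthetase of the endoplasmic reticulum and lipid droplets, had 46.1, 39.5 and 48.5 CPM in the control libraries, 40.3, 41.1 and 39.8 CPM at 24 h and 63.3, 65.3 and 64.2 CPM at 48 h, a log2 change of 0.52 ± 0.069 at 48 h (adjusted p = 5.89e-06). Acss2 (chr2:155359868-155427644, plus strand), which makes acetyl-CoA from acetate, had 14.5, 16.6 and 16.9 CPM in the control libraries, 12.4, 14.0 and 13.4 CPM at 24 h and 23.3, 21.9 and 21.6 CPM at 48 h. Its 24 h libraries were below control without passing the test (-0.26 ± 0.10 on the log2 scale, adjusted p = 0.131), and those at 48 h were above, by 0.48 ± 0.091 (adjusted p = 0.000255). Both genes lie over other expressed genes, Acsl3 with 13475 bases shared with Utp14b on the same strand and Acss2 with 22544 bases shared with Gss on the opposite strand, where Utp14b had a mean of 255 counts and Gss 839.

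Fatty acid synthase, acetyl-CoA carboxylase and ATP citrate lyase had smaller differences. Fatty acid synthase (Fasn) had 696, 763 and 793 CPM in the control libraries, 771, 708 and 796 CPM at 24 h and 823, 799 and 857 CPM at 48 h. The 48 h libraries were all above control, by a log2 change of 0.14 ± 0.052 (adjusted p = 0.0365), a call that was lost without control replicate 1 (0.154), 48 h replicate 1 (0.0765) or 48 h replicate 3 (0.142). Acetyl-CoA carboxylase (Acaca), which makes malonyl-CoA, had 109, 111 and 126 CPM in the control libraries, 138, 115 and 128 CPM at 24 h and 105, 103 and 108 CPM at 48 h. The log2 change was 0.14 ± 0.069 at 24 h and -0.13 ± 0.069 at 48 h, and neither passed (adjusted p = 0.3 and 0.142). ATP citrate lyase (Acly), the source of cytosolic acetyl-CoA for both sterols and fatty acids, differed by 0.11 ± 0.045 at 24 h and 0.11 ± 0.045 at 48 h (adjusted p = 0.167 and 0.059).

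Desaturation and elongation held the largest class median at 48 h, 0.56, with 5 of 6 genes higher and none lower. Elovl5 (chr9:77824646-77891801, plus strand), which lengthens polyunsaturated fatty acids, had 228, 231 and 241 CPM in the control libraries, 198, 212 and 203 CPM at 24 h and 448, 442 and 422 CPM at 48 h. No group overlapped another, with 24 h lowest and 48 h highest. The log2 change was -0.19 ± 0.048 at 24 h (adjusted p = 0.0196, and 0.136 without 24 h replicate 1 and 0.0942 without 24 h replicate 3) and 0.91 ± 0.047 at 48 h (adjusted p = 4.01e-11), a 1.87-fold rise over control. The 24 h call of Elovl5 was also lost with only the groups compared (adjusted p = 0.0688).

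Fads1 and Fads2 are neighbours on chromosome 19 and encode the desaturases that work with Elovl5 on polyunsaturated fatty acids. Fads1 (chr19:10160252-10174241, plus strand) had 187, 200.1 and 193 CPM in the control libraries, 184, 188 and 189 CPM at 24 h and 293, 290.1 and 304 CPM at 48 h, and Fads2 (chr19:10040129-10079110, minus strand) had 86.3, 101 and 94.0 CPM in the control libraries, 91.2, 93.7 and 101 CPM at 24 h and 143, 133 and 144 CPM at 48 h. In both genes control and 24 h overlapped and 48 h was higher, with log2 changes of 0.61 ± 0.047 (adjusted p = 6.14e-09) and 0.58 ± 0.064 (adjusted p = 6.06e-07). Scd1 (chr19:44382894-44396318, minus strand), the stearoyl-CoA desaturase that makes oleate, had 687, 678 and 725 CPM in the control libraries, 771, 749 and 763 CPM at 24 h and 1002, 1001 and 1046 CPM at 48 h. All 24 h libraries exceeded control without passing the test (0.13 ± 0.040, adjusted p = 0.0727), and the 48 h libraries were higher still, with a log2 change of 0.54 ± 0.040 against control (adjusted p = 3.72e-09). Its close relative Scd2 rose by 0.29 ± 0.049 at 48 h (adjusted p = 7.62e-05). The Scd genes are similar in sequence, so counts of both are uncertain where reads fit either. Elovl6, which lengthens saturated and monounsaturated chains, differed from control by -0.025 ± 0.070 at 24 h and 0.020 ± 0.070 at 48 h.

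**Figure D2:**
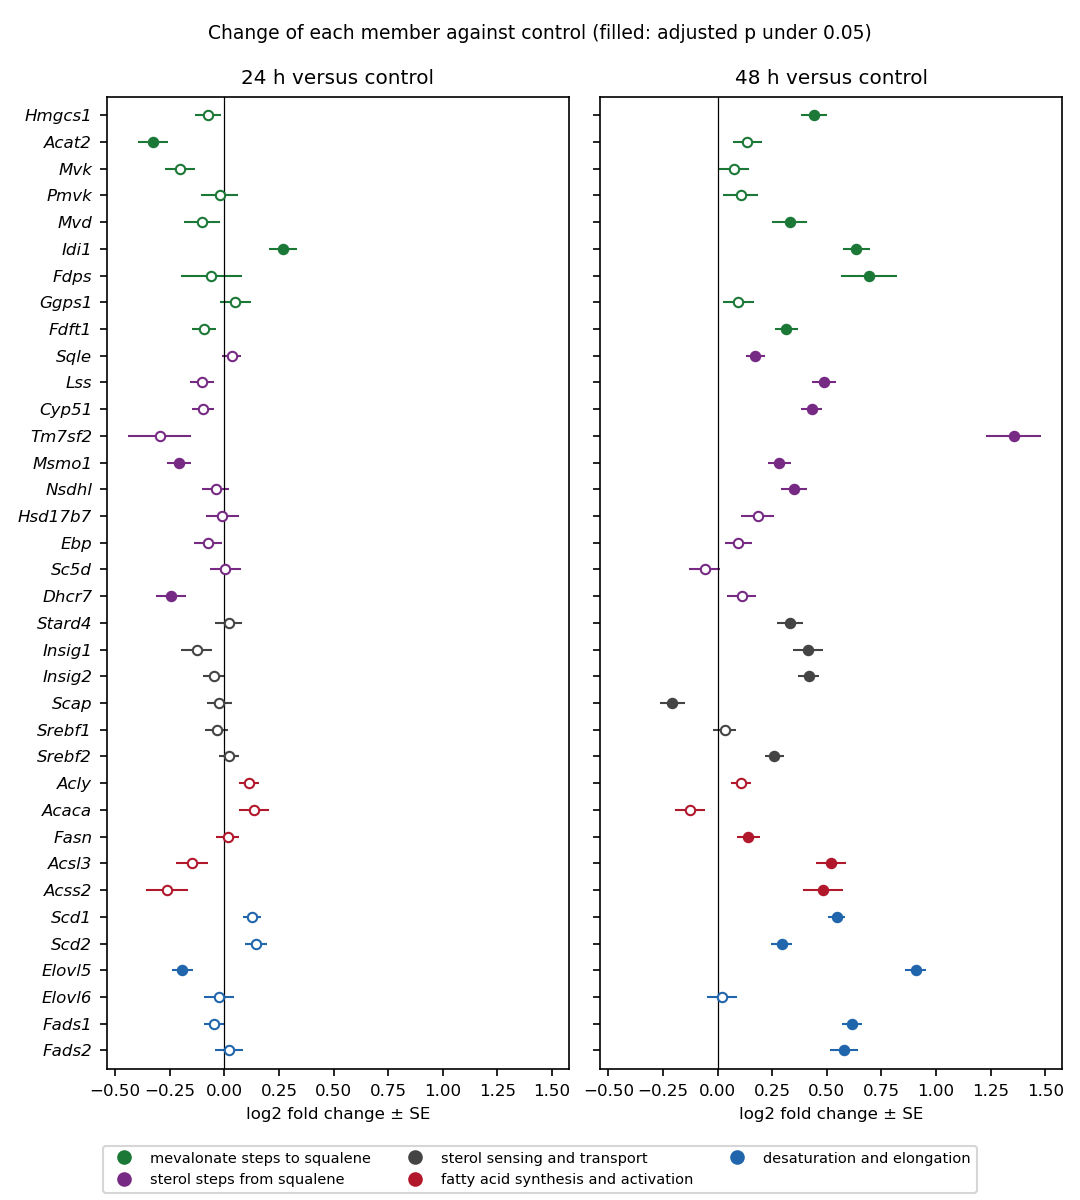
Log2 fold change of each gene against control at 24 h (left) and 48 h (right), with 1 SE from the edgeR fit, filled where the adjusted p is under 0.05 and coloured by role. At 24 h 5 points are filled and Idi1 is the only one of them above 0, while at 48 h 24 are filled and Scap is the only filled point below 0.

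After 24 h few of the 36 genes differed from control, and most of those were lower. Only Idi1 was higher, and Acat2, Msmo1, Dhcr7 and Elovl5 were lower, which is 1 and 4 of 36. Of all genes tested 6.15% were called in this comparison, 3.25% higher and 2.9% lower. The median log2 change of the 36 was -0.043, against -0.0042 for all genes, with 24 genes below 0 and 12 above. Libraries did not overlap for 11 genes, 2 higher and 9 lower, against 10.3% and 11.2% of all genes tested (21.5% in either direction). At an unadjusted p under 0.05 the counts were 4 higher and 6 lower. The share of all genes at that threshold was not counted, so these counts cannot be set against it. Leaving aside a stricter threshold, none of the 5 calls held under every alternative setting and without each library in turn, whereas 23 of the 24 calls at 48 h did.

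**Figure D3:**
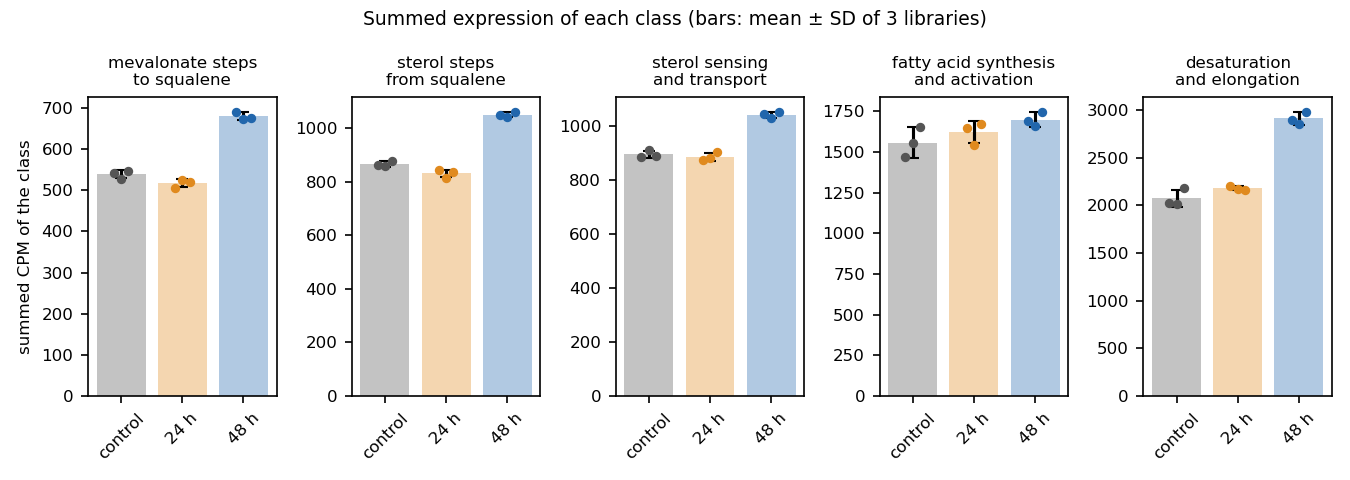
Summed CPM of the genes in each class, with bars at the mean of 3 libraries, error bars of 1 SD and a point for each library. The 48 h sums are above all control sums in all 5 classes, most in desaturation and elongation (1.41 times the control mean) and least in fatty acid synthesis and activation (1.09 times).

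The sums by class are set by their most abundant genes. Mevalonate genes summed to 528 to 547 CPM in control, 506 to 526 CPM at 24 h and 674 to 691 CPM at 48 h. The steps from squalene summed to 859.6 to 879.7 CPM in control, 816 to 843 CPM at 24 h and 1041 to 1063 CPM at 48 h. In these classes the 24 h libraries were all below the control libraries and the 48 h libraries all above them. Desaturation and elongation summed to 2014 to 2178 CPM in control, 2158 to 2198 CPM at 24 h and 2853 to 2982 CPM at 48 h, so that 24 h overlapped control there. Sensing and transport summed to 885 to 909 CPM in control and 1028 to 1050.2 CPM at 48 h, and fatty acid synthesis and activation to 1467 to 1654 CPM and 1658 to 1749 CPM, where the lowest 48 h library was only just above the highest control library.

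The direct comparison of 48 h with 24 h had the most calls among the 36 genes. Of the 36 genes 27 were higher at 48 h than at 24 h and 2, Scap and Acaca, were lower, where 49.1% of all genes tested were called, 23.7% higher and 25.4% lower. The median log2 difference was 0.38 (all genes -0.0017), and 29 genes had every 48 h library above every 24 h library and 3 had every one below, against 29.1% and 30.3% of all genes (59.4% in either direction). All 4 genes that were lower at 24 h than in control were higher at 48 h than at 24 h, in comparisons that share the 24 h libraries. Msmo1 and Elovl5 passed above control at 48 h, whereas Acat2 and Dhcr7 did not. By class, 7 of 9 mevalonate genes, 9 of 10 genes of the steps from squalene, 4 of 6 genes of sensing and transport, 2 of 5 of fatty acid synthesis and 5 of 6 of desaturation and elongation were higher. Acaca stood at 114.8 to 137.6 CPM at 24 h and 103.3 to 108.4 CPM at 48 h, a log2 difference of -0.27 (adjusted p = 0.00362). Of the 29 calls, 5 (Ebp, Hsd17b7, Scap, Scd2 and Sqle) were lost under some setting. Scap missed without 24 h replicate 3 (adjusted p = 0.0848) or 48 h replicate 3 (0.0523), and Scd2 without the same libraries (0.0672 and 0.0852). Sqle missed with no filter (0.0827) or without 48 h replicate 3 (0.0693). Ebp missed with no filter (0.132) or without 24 h replicate 2 (0.127) or 3 (0.0571) or 48 h replicate 1 (0.0741) or 3 (0.0964). Hsd17b7 missed without 24 h replicate 2 (0.175) or 3 (0.0631) or any 48 h replicate (0.0503 to 0.107). In a joint test of the 3 groups 27 of the 36 differed among them (51.9% of all genes). The 10 genes called in neither comparison with control were Mvk, Pmvk, Ggps1, Hsd17b7, Ebp, Sc5d, Srebf1, Acly, Acaca and Elovl6.

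Levels were compared between genes as CPM per kilobase of the annotated length, averaged over the 9 libraries. Scd1 (169), Scd2 (149.7), Acly (126), Elovl5 (82.8) and Fasn (71.1) were highest, all of them fatty acid genes. The order of the last pair differed by group, as Fasn was above Elovl5 in control (68.6 and 66.2) and at 24 h (69.3 and 57.9) and below it at 48 h (75.5 and 124). Sqle (53.0) was the highest of the sterol enzymes, followed by Cyp51 (39.7), Acat2 (31.6) and Hmgcs1 (30.9). Srebf2 (52.2) was above Srebf1 (30.3), and Insig2 (47.8) above Insig1 (18.7). Tm7sf2 (2.22), Fdps (1.97) and Acss2 (1.69) were lowest, and the span from top to bottom was 99.7-fold. In control Tm7sf2 (1.53) and Acss2 (1.57) were the lowest pair. Of the 35 pairs of neighbours in this order 33 overlapped between libraries, the exceptions being Fasn over Sqle and Acaca over Tm7sf2, so most of the order is not resolved. The plot of level against change sets these levels in control beside the changes at 48 h.

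**Figure D4:**
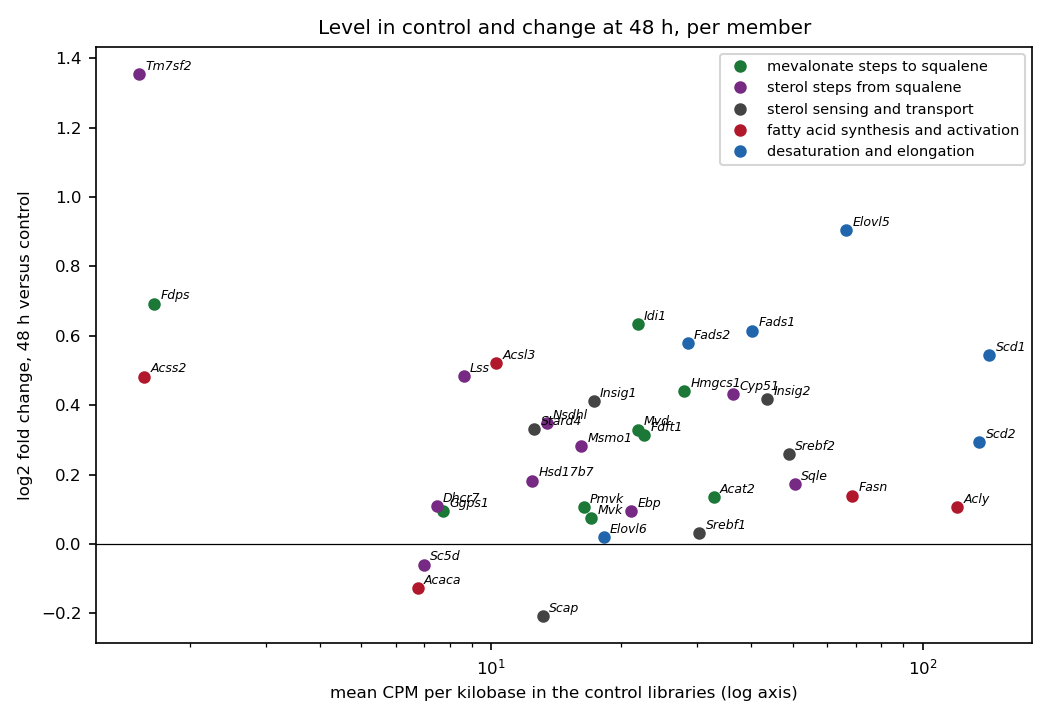
Mean CPM per kilobase in the control libraries (log axis) against the log2 change at 48 h, 1 point per gene, coloured by role. Tm7sf2 at the low end and Elovl5 at the high end have the largest changes, and Scap has the lowest value.

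Further genes of lipid synthesis, uptake, transport, storage and regulation, not among the 36, were taken from a written list of 110, of which 109 were in the table and 95 were tested. At 48 h 28 of the 95 were higher and 25 lower, and at 24 h 8 were higher and 6 lower. These are 29.5% and 26.3% at 48 h, near the 22% and 24.4% of all genes tested, and 8.42% and 6.32% at 24 h, where all genes gave 3.25% and 2.9%. The median log2 change at 48 h was -0.042, with 41 genes above 0 and 54 below. Lbr, which catalyses the same reduction as Tm7sf2 from the inner nuclear membrane, went the other way, with 82.1, 63.3 and 81.3 CPM in the control libraries, 77.8, 79.0 and 80.2 CPM at 24 h and 60.7, 64.1 and 63.8 CPM at 48 h. It fell by 0.27 on the log2 scale at 48 h (adjusted p = 0.0082), although 1 control library lay within the range of the 48 h libraries; Lbr was singled out after its values were seen.

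Of 12 genes that cut the SREBPs or degrade the sterol sensors, 3 were higher and 3 lower at 48 h, 25% each way and so near the share of all genes. The site-1 protease gene Mbtps1, which makes the first cut in the SREBPs, rose by 0.19 ± 0.049, and Rnf145 and Erlin2, of the sterol-dependent degradation machinery, by 0.30 and 0.24. Erlin1, of the same machinery, fell by 0.14, a call that was lost without control replicate 1 (adjusted p = 0.154) or 3 (0.134), 48 h replicate 1 (0.121) or 3 (0.13) or any 1 of the 24 h libraries (0.0568 to 0.0734). With all libraries kept it was also lost with DESeq2 (0.0779), no filter (0.0802) and only the groups compared (0.074). Other scalings lost it too, namely library size only (0.0787), RLE factors (0.0595) and upper quartile (0.0992). Of 15 genes that use mevalonate products for ubiquinone, dolichol and prenylated proteins, none was higher and 5 were lower (33.3%, all genes 24.4%) at 48 h, with Pdss1, a ubiquinone side chain synthase, at a log2 change of -0.68 ± 0.11 (adjusted p = 6.63e-05) and the farnesyltransferase subunit Fntb at -0.31 ± 0.078 (adjusted p = 0.00339). Rabggtb, a subunit of the Rab prenyltransferase, fell by 0.17 at 48 h, a call lost without control replicate 1 (adjusted p = 0.137) or 48 h replicate 1 (0.0703) or 3 (0.127). DESeq2 (0.0541) and upper quartile scaling (0.0584) also lost this call. Icmt, which methylates prenylated proteins, was the only gene of this list called at 24 h (0.23 ± 0.056, adjusted p = 0.0179, and 0.0707 and 0.103 without 24 h replicate 1 or 3). With only the groups compared it missed (adjusted p = 0.0525).

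Sterol uptake genes differed from one another. Mylip, an LXR target whose product degrades lipoprotein receptors, fell by 0.59 at 24 h (adjusted p = 0.00644, and 0.0517 and 0.0644 without 24 h replicate 3 or control replicate 1) and rose by 0.99 ± 0.11 at 48 h (adjusted p = 6.52e-07). Vldlr, a lipoprotein receptor, rose by 0.86 ± 0.094 and Lrp8, a related receptor, fell by 0.47 at 48 h (adjusted p = 5.35e-07 and 3.55e-06). Stard5, a sterol carrier related to Stard4, was higher at 24 h (0.41 ± 0.091, adjusted p = 0.00965, and 0.0542 without 24 h replicate 1) and at 48 h (0.46 ± 0.090). The lysosomal sterol carrier Npc2 rose by 0.22 ± 0.045 at 24 h, and the lysosomal lipase Lipa fell by 0.25, a call lost without 24 h replicate 1 or 3 or control replicate 1 (adjusted p = 0.0818, 0.159 and 0.095). Lipa also missed with only the groups compared (0.0632). Among export, storage and oxidation genes, the cholesteryl ester hydrolase Nceh1 fell by 0.21 at 24 h (adjusted p = 0.0449, lost without any 1 library other than control replicate 2, with adjusted p from 0.0526 to 0.218) and by 0.47 at 48 h (adjusted p = 3.4e-06), Apoe fell by 0.63 at 48 h (adjusted p = 0.007), and Nr1h2, which encodes the sterol receptor LXRβ, rose by 0.34 ± 0.070. The 24 h call of Nceh1 was also lost with no filter (0.0562), RLE factors (0.0516) and only the groups compared (0.0929). The transporter Abca1 had 17 counts or fewer per library outside the 48 h group and up to 27 within it. The other 24 h calls in this list were Lpcat3, 0.22 ± 0.054, and Cyp46a1, -0.62 ± 0.17, where Lpcat3 was lost without 24 h replicate 1 (adjusted p = 0.0564), 24 h replicate 3 (0.129) or control replicate 1 (0.0866), and Cyp46a1 without any 24 h replicate or control replicate 2 or 3 (0.0583 to 0.0974). Lpcat3 also missed with only the groups compared (0.0547).

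Of 24 further fatty acid genes tested, 7 were higher and 9 lower at 48 h, 29.2% and 37.5% against 22% and 24.4% of all genes. Acsl4, which activates arachidonate, was higher at both times. Its log2 change was 0.40 ± 0.066 at 24 h (adjusted p = 0.00068). By 48 h it was 0.71 ± 0.066 (adjusted p = 7.04e-08). Acacb, the mitochondrial acetyl-CoA carboxylase, rose by 0.60 ± 0.11 and Mlycd, which breaks down malonyl-CoA, by 0.45 ± 0.11 at 48 h. The mitochondrial fatty acid reductase Mecr fell by 0.64, the transcription factor partner Mlx by 0.36 and the elongation cycle enzyme Hacd3 by 0.34 at 48 h. At 24 h Fads3 was higher (0.28 ± 0.070, lost without 24 h replicate 2 or 3 or control replicate 1, with adjusted p from 0.0616 to 0.118) and Fads6 and the citrate carrier Slc25a1 were lower (-0.62 ± 0.10 and -0.23 ± 0.065). The call of Slc25a1 was lost without any 1 library other than control replicate 3, with adjusted p from 0.0624 to 0.16, and with only the groups compared (0.106). Glycerolipid synthesis, which stores the fatty acids made, had 9 of 15 genes higher and 4 lower at 48 h (60% and 26.7%). Dgat1 and Dgat2, the enzymes of the last step to triglyceride, were higher at both times, Dgat1 by 0.36 ± 0.076 at 24 h and 0.99 ± 0.073 at 48 h, and Dgat2 by 0.98 ± 0.15 and 0.97 ± 0.14. Lpin1, a phosphatidate phosphatase, rose by 0.60 ± 0.092, while the acyltransferase genes Agpat5, Agpat1 and Gpat4 fell by 0.52, 0.36 and 0.29. The comparisons with control share the control libraries, so that values at 24 h and 48 h are not independent.

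**Figure D5:**
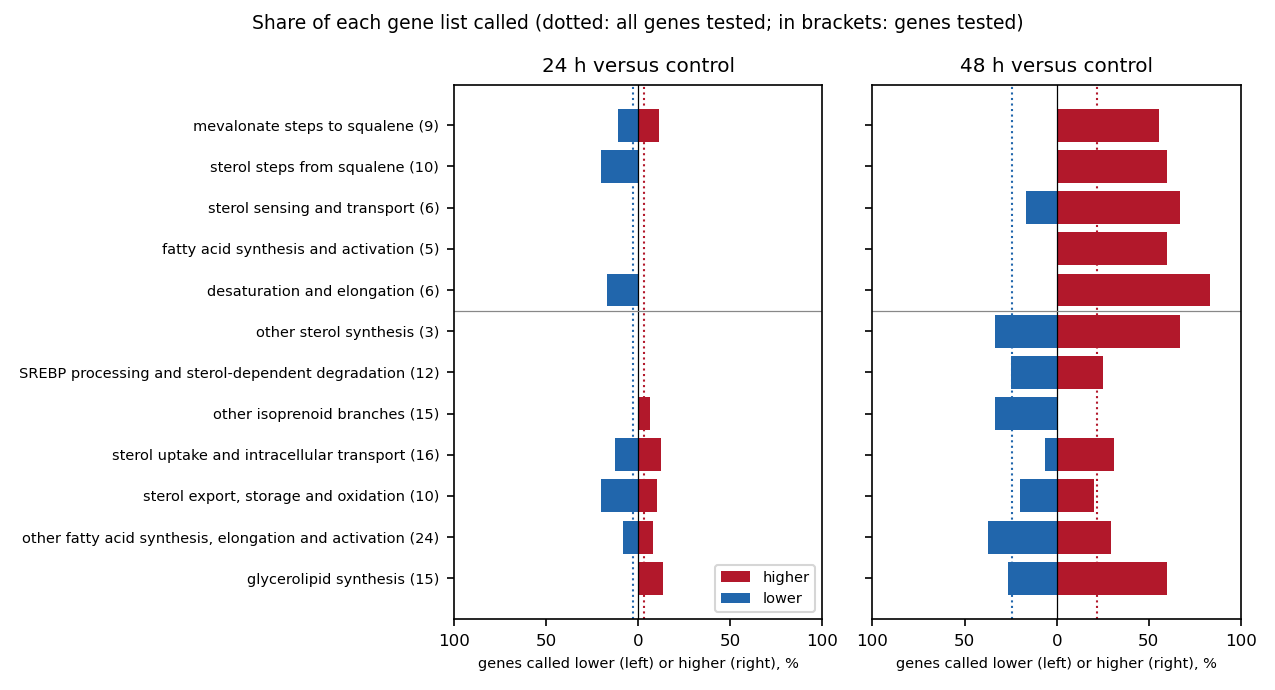
Percent of the tested genes of each list called higher (right, red) or lower (left, blue) against control at 24 h and 48 h, with the number tested in brackets, and the percent of all genes as dotted lines. At 48 h the 5 classes of the 36 genes, above the grey line, lie almost wholly to the right, whereas the isoprenoid branches have 5 of 15 genes lower and none higher.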

How the data were processed

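RNA sequencing was measured in 9 libraries, 3 per group, grouped by their labels. The counts are whole reads per gene as the authors deposited them. Per the labels, directional libraries were trimmed, aligned with HISAT2 and counted with featureCounts on GRCm39. The sources give different featureCounts versions, the strand setting is not given in the sources used here, and gene lengths in bases come from the deposited table. Because nothing states that replicates were separate cultures, p-values measure only the spread between these samples, which may be technical.

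Genes passing filterByExpr (minimum count 10; 13812 of 56748 genes, holding 99.88% of reads) were fitted in R 4.3.3 with edgeR 4.0.16 (TMM scaling, quasi-likelihood F-test, 1 fit over 9 libraries, 6 residual degrees of freedom), with Benjamini-Hochberg adjustment over all genes tested. Methods were tested on simulated data, where the share of false calls was above the nominal level and small changes were recovered less often than large ones. Alternatives used other scalings, no filter, DESeq2 1.42.0, 2 groups at a time, a replicate block, an adjusted p under 0.01 and each library left out. The members and lists were chosen with earlier results of these data known. Library values are printed for sensing and transport genes and, in other classes, for up to 4 members with the largest absolute log2 fold change against control. Further genes are named where called, at 5 CPM or more, with no overlap between libraries, up to 3 per direction, list and comparison with control. Abca1 and Lbr were added after their values were seen. Some genes of the further lists are not reported here. Overlaps were read from the deposited gene coordinates, and promoter windows from RefSeq (GRCm38.p6). The build of the deposited coordinates was checked against GENCODE M39 (GRCm39). Of the 56017 genes in both, 76.8% shared a start or end coordinate, whereas 14 of the 36 members did. Promoter windows were matched by symbol, and the 7 genes without one were Fads1, Fdft1, Fdps, Scd1, Scd2, Sqle and Stard4.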

Additional observations from a re-analysis of the deposited data

Results flagged for a closer look

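For 29 of the 36 genes the change against control at 48 h differed from the change at 24 h in edgeR's quasi-likelihood test of that difference (adjusted p under 0.05 over all genes tested), which is the comparison of 48 h with 24 h, as the control libraries cancel. In the same test 49.1% of all genes were called. The difference of the log2 fold changes was over 0.5 for Tm7sf2 (1.65), Elovl5 (1.10), Fdps (0.75), Acss2 (0.75), Acsl3 (0.67), Fads1 (0.66), Lss (0.59), Fads2 (0.56), Insig1 (0.54), Cyp51 (0.53) and Hmgcs1 (0.52). It was smaller but above 0 for Msmo1 (0.49), Insig2 (0.47), Acat2 (0.46), Mvd (0.43), Scd1 (0.42), Fdft1 (0.41), Nsdhl (0.39), Idi1 (0.37), Dhcr7 (0.35), Stard4 (0.31), Mvk (0.28), Srebf2 (0.24), Hsd17b7 (0.19), Ebp (0.17), Scd2 (0.15) and Sqle (0.14). It was below 0 for Scap (-0.18) and Acaca (-0.265).

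Of the further lipid genes called at both times, Mylip (1.58), Dgat1 (0.63), Acsl4 (0.31) and Nceh1 (-0.26) also differed between the times. Mylip lay below control at 24 h and above it at 48 h, whereas Dgat1 and Acsl4 were above control and Nceh1 below it at each time.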

How the results depend on the processing

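At 48 h against control, the counts of genes higher (22 to 25, 23 as reported) and lower (1) and the joint test (25 to 31, 27 as reported) stayed within 1.5 times of the reported count under every setting, as did the count higher at 48 h than at 24 h (23 to 28, 27 as reported). At 24 h against control the count higher (1) was 0 at an adjusted p under 0.01, 3 with no filter and 0 to 5 with a library left out (0 without 24 h replicate 2, 5 without control replicate 3). The count lower (4) was 1 at an adjusted p under 0.01, 2 with no filter, 1 with only the groups compared and 0 to 4 with a library left out (0 without 24 h replicate 3). The count lower at 48 h than at 24 h (2) was 1 at an adjusted p under 0.01 and 1 to 2 with a library left out (1 without 24 h or 48 h replicate 3). Over all genes, calls at 24 h (449 higher, 400 lower) were 759 higher with no filter, 254 lower with only the groups compared, 259 higher and 205 lower at an adjusted p under 0.01, and 295 to 873 higher and 222 to 602 lower with a library left out (most without control replicate 3). The replicate numbers gave no sign of pairing, as 0 of 9 correlations between the deviations of same-numbered samples exceeded 0.1 (-0.0493 to 0.0775). A replicate block kept 1 higher and 4 lower at 24 h and gave 25 higher at 48 h, adding Acly (adjusted p = 0.0419) and Hsd17b7 (0.0327), and 28 higher at 48 h than at 24 h. Directions near 0 reversed without passing any test. At 24 h these were Fasn with library size only (-0.0032), Sc5d with library size only (-0.014) or upper quartile scaling (-0.0065) and Hsd17b7 with no filter (0.0064), and from 24 h to 48 h Acly with DESeq2 (0.00048), library size only (0.033), RLE factors (0.00044) or upper quartile (0.033) and Dgat2 with library size only (0.030) or upper quartile (0.030). With a library left out, values at 24 h ranged across 0 for Elovl6 (-0.089 to 0.067), Fads2 (-0.034 to 0.083), Fasn (-0.033 to 0.066), Fdps (-0.17 to 0.015), Hsd17b7 (-0.067 to 0.089), Pmvk (-0.078 to 0.038), Sc5d (-0.042 to 0.055), Scap (-0.057 to 0.013), Srebf1 (-0.059 to 0.0071), Srebf2 (-0.0019 to 0.044) and Stard4 (-0.011 to 0.052), at 48 h for Elovl6 (-0.036 to 0.12), and from 24 h to 48 h for Acly (-0.021 to 0.015), Dgat2 (-0.099 to 0.045), Elovl6 (-0.0059 to 0.078) and Ggps1 (-0.00037 to 0.10). The cause of these changes was not tested.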
